A study of Rattus norvegicus with 50 samples.

Results

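The pericentral Wnt-zonated genes followed here are Glul, Oat, Tbx3, Axin2 and Wnt4, which are 5 of the 6 listed members. They were matched by gene symbol among 14217 measured genes, with the probe set of the highest mean over 50 arrays standing for each gene. Rhbg was listed too and has no probe set in the probe gene table, so it was not analysed here. Liver RNA was taken from 50 female rats of the Brown Norway strain (Bn/Crl, MHC haplotype RT1n, 9 to 11 weeks old), with 1 array per rat in 17 groups of 3, except 2 rats for galactosamine at 48 h. Combination rats received oral nevirapine at 150, then 100, then 75 mg/kg with a day's break, a single intraperitoneal injection of galactosamine at 750 mg/kg on day 7, and nevirapine until their livers were taken 3 h, 24 h, 48 h or 8 d after the injection. Galactosamine rats received the injection with sham oral doses and were sampled at the same times. Nevirapine rats received the oral drug with a sham injection and were sampled 3 h, 24 h, 48 h or 15 d after the first dose. At 3 h to 48 h they had therefore been dosed for fewer days than combination rats. The records give the same 150, then 100, then 75 mg/kg for nevirapine at 15 d. They give no dose for nevirapine at 3 h to 48 h. The design text of the series names only 75 mg/kg for nevirapine alone. Vehicle rats received both sham doses and were sampled at 3 h, 24 h, 48 h, 8 d and 15 d. The last oral dose, sham or drug, preceded sampling by 2 h, by 5 h in the 3 h groups and by 3 h for nevirapine at 3 h. The design asks how livers change over the 8 d in which the combination produced fibrosis and the single drugs did not.

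Hepatocytes around the central vein of a liver lobule differ from those around the portal vein. Wnt ligands and R-spondins from endothelial cells of the central vein keep beta-catenin active in the nearest hepatocytes, and the pericentral genes are its read-out. Glul encodes glutamine synthetase, which fixes the last ammonia before blood leaves the lobule. Oat encodes ornithine aminotransferase, which turns ornithine into glutamate semialdehyde in the same cells. Axin2 is a feedback inhibitor that beta-catenin induces and that helps degrade beta-catenin, Tbx3 is a transcription factor gene of the pericentral hepatocyte, and Wnt4 encodes a secreted Wnt ligand. Galactosamine is a sugar amine that uses up the uridine nucleotides of hepatocytes, while nevirapine inhibits the reverse transcriptase of HIV and is known for liver injury in some patients.

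The sequence CTTTGAA or CTTTGAT is what the TCF and LEF partners of beta-catenin recognise, and the 250 bases before a gene's start were searched for both on either strand. RefSeq windows of build GRCr8 were found for 5 of the 6 listed genes, with 6 starts in all, and 7.6% of 33469 windows of this length held at least 1 match, 0.478% at least 2. The windows of Axin2 and Glul are shown, and of the genes with a window only these held a match. Capitals mark the matches. These genes moved in opposite directions at 24 h of galactosamine and not at its other times, and a link to the matches was not tested. Axin2 held 2 matches, at 232 to 226 and at 132 to 126 bases before the start, both on the strand of the gene. At one start of Glul there was 1 match, on the opposite strand (ATCAAAG as read here), and the other start held 0, as did the windows of Oat, Rhbg and Wnt4. A match describes these letters and is no evidence of binding.
Axin2, chr10:94398535-94398784, + strand: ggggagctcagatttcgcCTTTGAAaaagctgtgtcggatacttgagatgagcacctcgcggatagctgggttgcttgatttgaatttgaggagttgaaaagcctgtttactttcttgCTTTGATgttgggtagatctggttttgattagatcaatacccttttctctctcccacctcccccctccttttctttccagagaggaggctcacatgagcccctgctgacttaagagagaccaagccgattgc
Glul, chr13:68519250-68519499, + strand: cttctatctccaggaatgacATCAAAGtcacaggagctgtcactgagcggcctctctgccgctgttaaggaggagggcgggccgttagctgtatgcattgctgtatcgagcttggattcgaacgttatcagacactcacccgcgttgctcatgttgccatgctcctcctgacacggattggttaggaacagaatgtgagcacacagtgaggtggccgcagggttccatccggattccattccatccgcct
Glul, chr13:68575816-68576065, + strand: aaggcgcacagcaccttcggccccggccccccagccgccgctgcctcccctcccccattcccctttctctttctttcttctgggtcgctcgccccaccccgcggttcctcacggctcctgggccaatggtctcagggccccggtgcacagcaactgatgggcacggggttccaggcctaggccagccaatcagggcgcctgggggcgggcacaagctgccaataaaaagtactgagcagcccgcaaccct

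All values below are log2 signals as the authors deposited them, and differences are log2 differences with the standard error of the limma fit. A gene passed the test when its p, adjusted over all 14217 genes of the comparison, was under 0.05. The arrays' medians lay between 4.95 and 5.09, and an array's correlation with the others of its group averaged between 0.979 (rat63, combination at 3 h) and 0.997. No pair of arrays correlated above 0.997. The labels give no date or batch. All 7 measured hepatocyte markers were bright in every group, with group means of their average between 13.35 and 13.47. Single markers still passed against vehicle. Among these calls, 2 rose and 2 fell after galactosamine at 24 h. In the combination at 3 h and after nevirapine at 48 h, 0 rose and 2 fell. The average therefore does not show that the share of hepatocytes was constant. The number of arrays limits the precision, and in whole liver fewer cells of a type and less RNA per cell cannot be told apart. A group mean under 4.37, the highest of 27 control probe sets for bacterial genes, is called near background.

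In the 15 vehicle rats Glul lay between 10.70 and 11.33 (median 11.08) and Oat between 11.90 and 12.62 (median 12.38). Tbx3 spread from 6.01 to 7.58 (median 6.82), Axin2 from 6.25 to 7.86 (median 6.94) and Wnt4 from 4.13 to 5.88 (median 4.87). Vehicle levels of Axin2 differed between sampling times. They averaged 7.41 ± 0.41 at 3 h, 6.96 ± 0.26 at 24 h, 7.15 ± 0.10 at 48 h, 6.36 ± 0.095 at 8 d and 6.56 ± 0.13 at 15 d (SD, n = 3 each), without overlap between the rats of 3 h and those of 8 d or 15 d. Each treated group was therefore set against the vehicle rats labelled with its own time, and the combination at 8 d, after 15 d of dosing, against those of 15 d. For nevirapine at 3 h this match is incomplete. These rats were sampled 3 h after their last oral dose and the vehicle rats of 3 h were sampled 5 h after theirs. Vehicle groups also differed in the excess of the 3′ GAPDH signal over the 5′ one, a gap that widens as RNA degrades. This gap averaged 0.4, 0.47 and 0.613 at 3 h, 24 h and 48 h, and 0.04 and 0.087 at 8 d and 15 d. Its part in the vehicle levels of Axin2 was not tested.

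**Figure D1:**
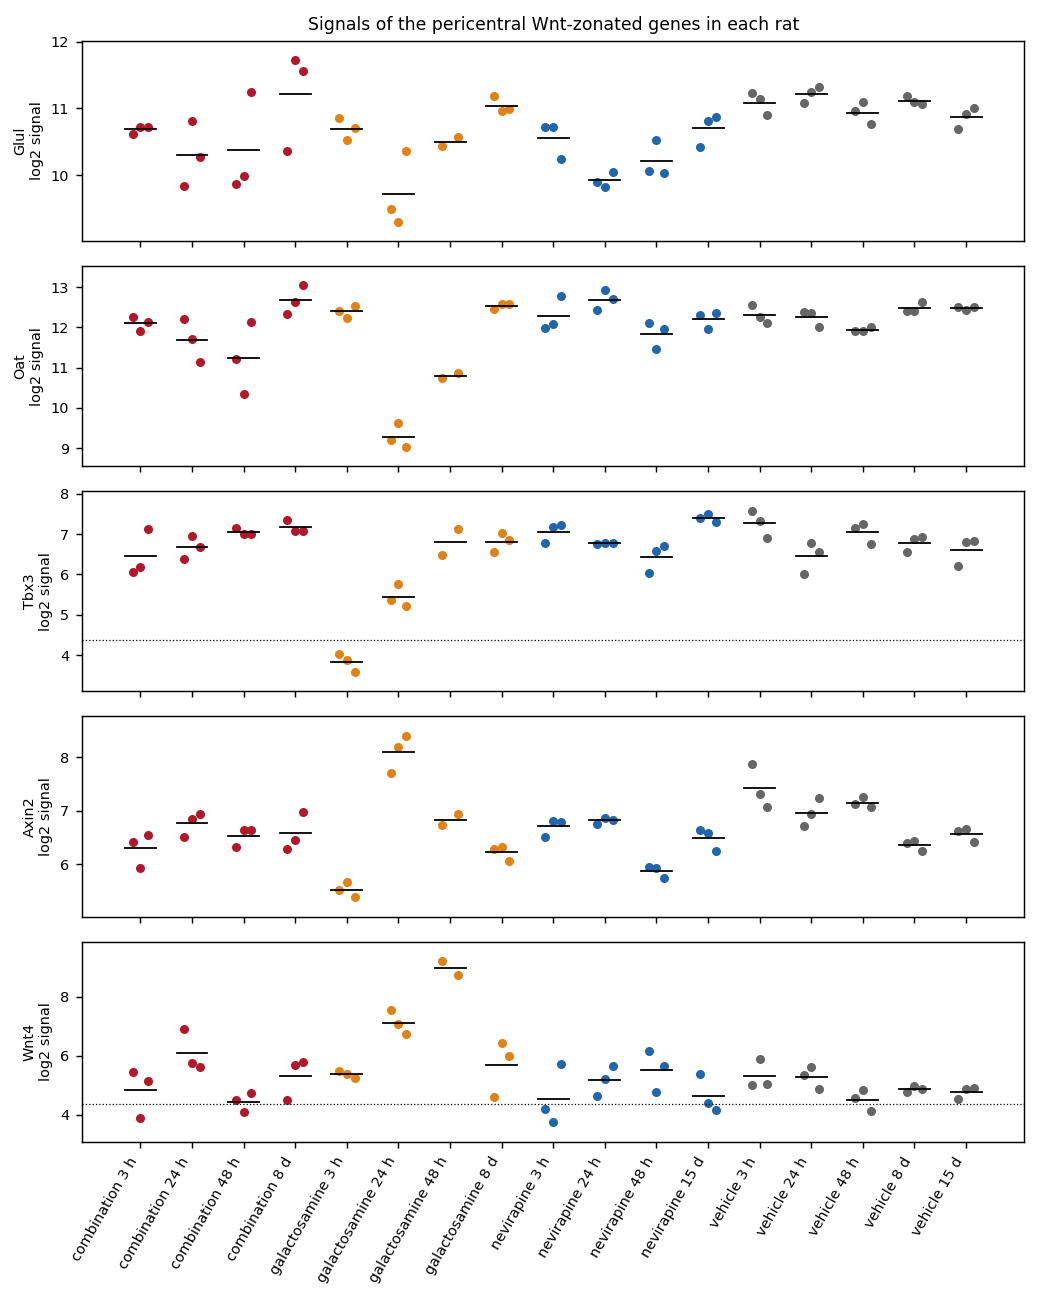
Log2 signal of Glul, Oat, Tbx3, Axin2 and Wnt4 (vertical axes) in each rat (points) of the 17 groups (horizontal axis), with a bar at each group's mean and, for Tbx3 and Wnt4, a dotted line at the background level of 4.37. Wnt4 is highest in the 2 galactosamine rats at 48 h (9.22 and 8.73), Axin2 in those at 24 h, where Oat and Glul are at their lowest, and Tbx3 is at its lowest 3 h after galactosamine alone.

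Galactosamine alone split the members in time. At 3 h Tbx3 and Axin2 fell while the enzyme genes Glul and Oat did not pass the test. At 24 h Glul, Oat and Tbx3 were lower and Axin2 and Wnt4 higher than in vehicle rats, at 48 h Oat was still lower and Wnt4 higher still, and at 8 d none passed. Members called numbered 2 of 5 at 3 h (32.9% of all genes were called), 5 of 5 at 24 h (58.8%), 2 of 5 at 48 h (39.4%) and 0 of 5 at 8 d (0.0352%, with 0.00703% higher and 0.0281% lower; 846 of 14217 genes had an unadjusted p under 0.05, none of them a member). In the combination the members called were Tbx3 and Axin2 at 3 h (2 of 5 against 32.5% of all genes), Glul at 24 h (1 of 5 against 36.7%), Axin2 at 48 h (1 of 5 against 15.9%) and none at 8 d (0 of 5 against 24.8%, and none had an unadjusted p under 0.05 other than Tbx3). Nevirapine alone gave 1 call at each time, lower for Axin2 at 3 h (15.1% of all genes called, 7.48% lower), Glul at 24 h (11.2%, 6.63% lower) and Axin2 at 48 h (17.4%, 6.44% lower), and higher for Tbx3 at 15 d (13.9%, 5.13% higher). With 5 members these shares are described and not tested against the background.

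**Figure D2:**
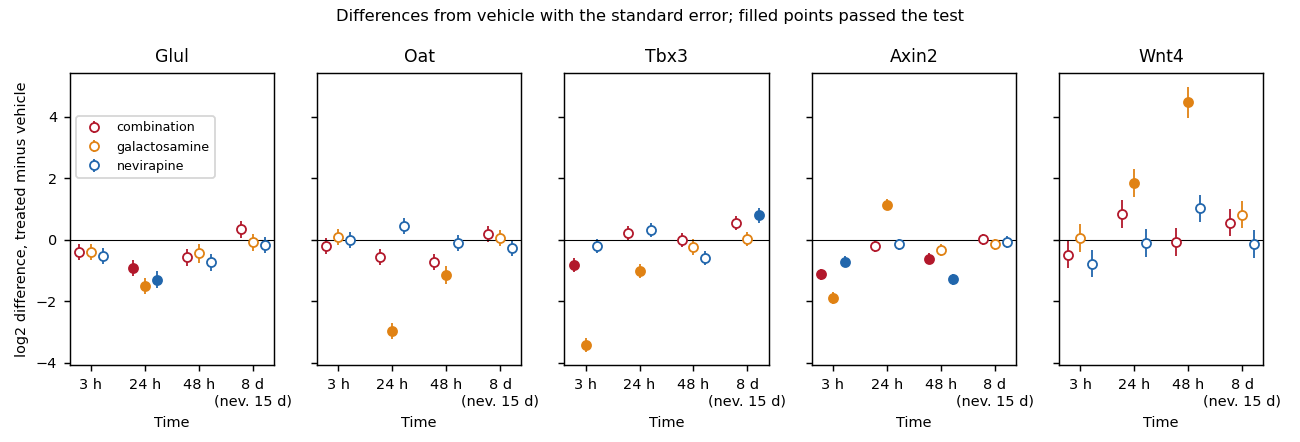
Log2 difference of each treated group from its vehicle group (vertical axis) for the 5 genes at 3 h, 24 h, 48 h and 8 d (15 d for nevirapine), with the standard error; filled points passed the test. The galactosamine points leave 0 in opposite directions at 24 h, with Oat at -2.96 and Wnt4 at 1.85, and lie near 0 at 8 d for Glul, Oat, Tbx3 and Axin2.

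Wnt4, the ligand, showed its highest signals after galactosamine alone. Its signals were 9.22 and 8.73 in the galactosamine rats at 48 h, against 4.56, 4.83 and 4.13 in vehicle rats. Both treated rats lay far above all 3 vehicle rats, a difference of 4.47 ± 0.51 (adjusted p = 5.73e-09, n = 2 against 3) or 22.2-fold. The vehicle mean of 4.51 lay just above the background level of 4.37, so this fold is no exact size. One day earlier the galactosamine rats had 7.56, 7.08 and 6.73, against 5.33, 5.61 and 4.87 in vehicle rats, again without overlap (1.85 ± 0.45, adjusted p = 0.000605). At 3 h the levels were 5.50, 5.39 and 5.23 in galactosamine rats and 5.01, 5.88 and 5.03 in vehicle rats, and the groups overlapped (0.07 ± 0.45, adjusted p = 0.932). By 8 d galactosamine rats had 4.60, 6.43 and 6.00, against 4.75, 4.96 and 4.87 in vehicle rats. Of these, rat103 and rat104 lay above all vehicle rats and rat102 below them, and the difference did not pass (0.82 ± 0.45, adjusted p = 0.879).

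With nevirapine given before and with galactosamine, the rise of Wnt4 at 48 h was not seen. Combination rats had 4.48, 4.09 and 4.74 at 48 h, against 9.22 and 8.73 in galactosamine rats. The difference was -4.54 ± 0.51 (adjusted p = 6e-09), which is 23.2-fold lower in the combination, and the combination differed from vehicle by -0.07 ± 0.45 (adjusted p = 0.947). With the combination mean of 4.44 just above the background level, this fold is no exact size either. At 24 h the combination rats had 6.93, 5.77 and 5.61, where rat67 lay within the galactosamine range and the other two below it (-1.02 ± 0.45 against galactosamine, adjusted p = 0.0736; 0.83 ± 0.45 against vehicle, adjusted p = 0.159). Without rat67 the difference from galactosamine became -1.43 and passed (adjusted p = 0.0227). Under nevirapine alone Wnt4 differed from vehicle by -0.77 to 1.02 at the 4 times, and no difference passed. The order of group means ran from galactosamine at 48 h (8.98) through galactosamine at 24 h (7.12) and the combination at 24 h (6.10) to the combination at 48 h (4.44), and only the step below galactosamine at 48 h was free of overlap between neighbours in that order.

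Wnt4 moved in groups whose other cell type markers moved too. The average of 7 cholangiocyte and progenitor markers was 5.88 (5.65 to 6.12) in galactosamine rats at 48 h, against 4.93 (4.77 to 5.15) in vehicle rats, where 3 of 7 rose and 2 were near background in each group. Their summed signal was 10.78 to 10.79 (log2) in galactosamine rats and 8.26 to 8.73 in vehicle rats. Macrophage markers averaged 9.17 (9.15 to 9.19) against 7.69 (7.19 to 8.29), where 6 of 7 rose and 1 fell. Of 8 stellate markers 3 rose (7.27 against 6.69), as did 3 of 7 endothelial markers (7.97 against 7.59). At 24 h of galactosamine cholangiocyte markers averaged 5.59 (5.34 to 5.96), against 5.06 (4.80 to 5.43) in vehicle rats, and 2 of 7 rose and 1 fell. Macrophage markers there averaged 8.35 (8.22 to 8.43), against 7.43 (7.35 to 7.52), and 3 of 7 rose and 1 fell. In the combination at 48 h, where Wnt4 was at the vehicle level, cholangiocyte markers averaged 5.29 (1 of 7 rose) and macrophage markers 9.16 (6 of 7 rose). Beside these marker counts, 24.9% of all genes rose and 14.5% fell at 48 h of galactosamine, and 30.2% and 28.5% at 24 h. In the combination at 48 h 10.2% of all genes rose and 5.77% fell. The signal of the 3′ GAPDH probe set exceeded that of the 5′ one, a gap that widens as RNA degrades, by 0.138 on average in galactosamine rats at 48 h, 0.318 in combination rats and 0.613 in vehicle rats, without overlap of either treated group with vehicle. The part of other cells in the level of Wnt4 was not tested; with the GAPDH gap as a covariate the Wnt4 difference at 48 h was 4.48 ± 0.60 (adjusted p = 3.15e-07).

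Axin2, the feedback inhibitor, fell and then rose within 24 h of galactosamine. At 3 h its signals were 5.51, 5.67 and 5.38 in galactosamine rats, against 7.86, 7.31 and 7.07 in vehicle rats, with no overlap (-1.89 ± 0.18, adjusted p = 1.79e-10, 3.72-fold lower). In the galactosamine rats at 3 h macrophage markers averaged 8.48 (8.34 to 8.61), against 7.42 (7.00 to 7.87) in vehicle rats. Of the markers 6 of 7 macrophage, 6 of 7 endothelial, 1 of 8 stellate and 1 of 7 cholangiocyte ones rose, beside 14.9% of all genes. Of 7 hepatocyte and 8 lymphocyte markers 0 passed. The part of these cells in the levels of Axin2 and Tbx3 was not tested. At 24 h the Axin2 signals were 7.70, 8.19 and 8.40, against 6.71, 6.94 and 7.24, now with all treated rats above all vehicle rats (1.14 ± 0.18, adjusted p = 9.06e-07, 2.2-fold higher). These are the highest group mean (8.10) and the lowest (5.52) of Axin2 among the 17 groups. At 48 h the galactosamine rats had 6.72 and 6.94, under the vehicle rats at 7.13, 7.26 and 7.06, and the difference of -0.32 ± 0.20 did not pass (adjusted p = 0.209), nor did that at 8 d (-0.14 ± 0.18, adjusted p = 0.998).

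The combination showed the early fall of Axin2 without the later rise. Signals at 3 h were 6.41, 5.93 and 6.55 in combination rats, all under the vehicle rats (-1.12 ± 0.18, adjusted p = 8.02e-06) and all above the galactosamine rats (0.78 ± 0.18, adjusted p = 0.00206). At 24 h combination rats had 6.50, 6.84 and 6.94, which overlapped the vehicle rats (-0.20 ± 0.18, adjusted p = 0.432) and lay below every galactosamine rat (-1.33 ± 0.18, adjusted p = 1.42e-07). At 48 h they had 6.32, 6.64 and 6.63, below all vehicle rats (-0.62 ± 0.18, adjusted p = 0.0145), a call that ended without rat70 (-0.52, adjusted p = 0.108) or rat11 (-0.57, adjusted p = 0.063), against all vehicle groups (-0.36, adjusted p = 0.0604) or with the GAPDH gap as a covariate (-0.57, adjusted p = 0.052). At 8 d the difference from vehicle was 0.02 ± 0.18 (adjusted p = 0.962).

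Nevirapine alone lowered Axin2 at 2 of its 4 times. After 48 h the signals were 5.94, 5.92 and 5.75 in nevirapine rats, against 7.13, 7.26 and 7.06 in vehicle rats, far apart and with little spread in either group (-1.28 ± 0.18, adjusted p = 8.54e-06). After 3 h they were 6.51, 6.81 and 6.79, against 7.86, 7.31 and 7.07 (-0.71 ± 0.18, adjusted p = 0.00604). The 3 h call rested on vehicle rat1, without which the difference became -0.49 (adjusted p = 0.091), and with the mean of all vehicle groups as control it was -0.18 (adjusted p = 0.414). At 24 h and 15 d the differences were -0.14 and -0.07 and did not pass.

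Tbx3 fell within 3 h of galactosamine, and on its brightest probe set the fall was smaller at 24 h. Its signals at 3 h were 4.04, 3.89 and 3.59 in galactosamine rats, against 7.58, 7.31 and 6.89 in vehicle rats. All 3 treated rats lay near background, so the fall is given as at least 7.43-fold (fitted difference -3.42 ± 0.23, adjusted p = 2.96e-14). At 24 h the galactosamine rats had 5.37, 5.75 and 5.22, against 6.01, 6.79 and 6.57, still without overlap (-1.01 ± 0.23, adjusted p = 0.00024). At 48 h they had 6.49 and 7.12, which overlapped the vehicle rats (-0.23 ± 0.26, adjusted p = 0.484), and at 8 d the difference was 0.02 ± 0.23. The 3 dimmer probe sets of Tbx3 moved the same way at 3 h by smaller amounts, -0.79 ± 0.15, -0.50 ± 0.12 and -0.59 ± 0.11 (adjusted p = 7.2e-05, 0.00117 and 0.000106 over 31042 probe sets). These averaged 5.39, 4.94 and 3.10 over all arrays, the last of them under the background level. They did not show the partial return: their effect at 24 h differed from that at 3 h by 0.31, 0.09 and 0.13 (adjusted p = 0.244, 0.703 and 0.544), against 2.42 on the brightest. At 48 h they differed from vehicle by -0.48 ± 0.17, -0.26 ± 0.13 and -0.26 ± 0.13, and the first of them still passed (adjusted p = 0.0233, 0.128 and 0.113). The mean of the probe sets also passed at 48 h (-0.31 ± 0.12, adjusted p = 0.0423).

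In the combination the fall of Tbx3 at 3 h was smaller on its brightest probe set. On it combination rats had 6.05, 6.19 and 7.13, where rat63 lay within the vehicle range and the other two below it (-0.81 ± 0.23 against vehicle, adjusted p = 0.00607). On this probe set each of them lay far above the galactosamine rats (at least 4.24-fold higher, fitted difference 2.61 ± 0.23, adjusted p = 2.6e-10). On the dimmer probe sets the combination differed from galactosamine by 0.11 ± 0.15, -0.08 ± 0.12 and 0.30 ± 0.11, none of which passed (adjusted p = 0.663, 0.712 and 0.0684), and from vehicle by -0.67 ± 0.15, -0.57 ± 0.12 and -0.28 ± 0.11 (adjusted p = 0.000751, 0.000297 and 0.0626). On the brightest, the difference from vehicle did not pass without rat61 (-0.61, adjusted p = 0.0612), rat62 (-0.67, adjusted p = 0.0512) or vehicle rat1 (-0.65, adjusted p = 0.0545), with only these groups fitted (adjusted p = 0.101) or against all vehicle groups (-0.38, adjusted p = 0.0911). In combination rats at 3 h macrophage markers averaged 9.58 (9.56 to 9.61) and 7 of 7 rose. Of the others 5 of 7 endothelial, 4 of 8 stellate, 4 of 8 lymphocyte and 2 of 7 cholangiocyte markers rose, beside 15.2% of all genes. Of 7 hepatocyte markers 0 rose and 2 fell, beside 17.4% of all genes that fell. Of the 8 lymphocyte markers 3 were near background in these rats and 6 in vehicle rats. The part of these cells was not tested. At 24 h combination rats had 6.39, 6.95 and 6.67, overlapping the vehicle rats and above every galactosamine rat (1.22 ± 0.23, adjusted p = 3.83e-05). At 48 h the combination differed from galactosamine by 0.24 ± 0.26 on the brightest probe set, which did not pass (adjusted p = 0.515). The dimmer probe sets were higher in the combination there (0.52 ± 0.17, 0.44 ± 0.13 and 0.39 ± 0.13, adjusted p = 0.0204, 0.0127 and 0.0241). After 48 h of nevirapine alone Tbx3 was 6.04, 6.59 and 6.70, against 7.14, 7.24 and 6.75 in vehicle rats, without overlap, and the brightest probe set did not pass (-0.60 ± 0.23, adjusted p = 0.0624), whereas the other 3 did (-0.52 ± 0.15, -0.45 ± 0.12 and -0.52 ± 0.11, adjusted p = 0.0146, 0.00765 and 0.00187). After 3 h of nevirapine the brightest differed by -0.20 (adjusted p = 0.596), and 2 of the other 3 passed (-0.65 ± 0.15 and -0.40 ± 0.12, adjusted p = 0.00278 and 0.0202). After 15 d of nevirapine alone Tbx3 was 7.41, 7.49 and 7.30, against 6.21, 6.80 and 6.82 in vehicle rats, which is higher without overlap (0.79 ± 0.23, adjusted p = 0.0164). This call ended without rat13 (0.59, adjusted p = 0.139) or rat44 (0.74, adjusted p = 0.0698), and the next brightest Tbx3 probe set differed by -0.02 ± 0.15 there (adjusted p = 0.975). In combination rats at 8 d the signals were 7.34, 7.07 and 7.07, above all vehicle rats at 15 d, and the difference did not pass (0.55 ± 0.23, adjusted p = 0.0716).

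Glul fell at 24 h under every treatment on its brightest probe set. Signals at 24 h were 9.50, 9.30 and 10.35 in galactosamine rats, against 11.08, 11.24 and 11.33 in vehicle rats, with no overlap (-1.50 ± 0.27, adjusted p = 1e-05, 2.83-fold lower). The nevirapine rats had 9.90, 9.81 and 10.05 at 24 h, close to each other and below all vehicle rats (-1.29 ± 0.27, adjusted p = 0.0012, 2.45-fold lower). In the combination they were 9.84, 10.81 and 10.27, also below all vehicle rats (-0.91 ± 0.27, adjusted p = 0.00725). At 3 h the combination, galactosamine and nevirapine groups differed from vehicle by -0.40, -0.39 and -0.53, with no overlap with the vehicle rats in any of them, and none passed (adjusted p = 0.274, 0.297 and 0.193; Glul passed after galactosamine with only these groups fitted, adjusted p = 0.0336). At 48 h the differences were -0.57, -0.44 and -0.73 (adjusted p = 0.166, 0.259 and 0.0577). With only the groups compared, Glul passed at 48 h after galactosamine (adjusted p = 0.023) and nevirapine (adjusted p = 0.0119). Against all vehicle groups it passed at 48 h after nevirapine (-0.84, adjusted p = 0.00584) and in the combination (-0.68, adjusted p = 0.0173).

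At 24 h the 3 probe sets of Glul gave different results in combination rats. After galactosamine at 24 h the other two fell as the first did, with differences of -1.27 ± 0.25 and -1.25 ± 0.37 (adjusted p = 5.68e-05 and 0.00509). After nevirapine at 24 h they differed by -0.92 ± 0.25 and -0.91 ± 0.37, and the dimmest did not pass (adjusted p = 0.0185 and 0.147). In the combination at 24 h they differed from vehicle by 0.04 ± 0.25 and 0.05 ± 0.37 (adjusted p = 0.929 and 0.947), with signals of the next brightest at 10.39, 10.74 and 11.10 in combination rats, against 10.45, 10.82 and 10.82 in vehicle rats. Against galactosamine at 24 h the combination was higher on the other two (1.32 ± 0.25 and 1.30 ± 0.37, adjusted p = 8.34e-05 and 0.00683) and did not pass on the first (0.59 ± 0.27, adjusted p = 0.0869 over genes). With the mean of the probe sets the combination at 24 h differed from vehicle by -0.27 (adjusted p = 0.496). Without rat67 the first probe set no longer passed either (-0.68, adjusted p = 0.0772). After 48 h of nevirapine the other two passed (-1.05 ± 0.25 and -1.30 ± 0.37, adjusted p = 0.00437 and 0.0158), and the first did not. On the dimmest the nevirapine rats spread widely, from 6.61 to 9.08 (median 8.29), against 9.12 to 9.41 in vehicle rats. On the next brightest they lay between 9.27 and 10.00, against 10.54 to 10.81. The GAPDH gap of these nevirapine rats ranged from 0.014 to 0.86, and its part was not tested. Where the probe sets lie on the transcript is not given in the sources used here.

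**Figure D3:**
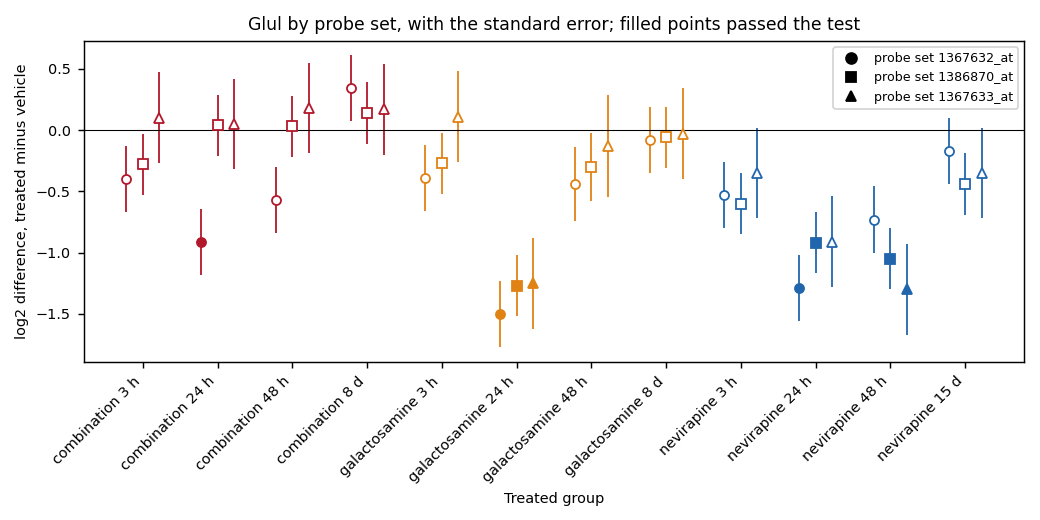
Log2 difference of Glul from vehicle (vertical axis) in the 12 treated groups (horizontal axis) by probe set, as circles, squares and triangles, with the standard error; filled points passed the test. All 3 probe sets lie below 0 after galactosamine at 24 h, whereas in the combination at 24 h the circle alone lies below 0, at -0.91.

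Oat fell after galactosamine alone at 24 h and 48 h, and at 24 h it was higher in the combination than after galactosamine. Signals at 24 h were 9.19, 9.63 and 9.03 in galactosamine rats, against a mean of 12.25 ± 0.21 (SD, n = 3, highest 12.38) in vehicle rats (-2.96 ± 0.26, adjusted p = 1.55e-12, 7.79-fold lower). Every treated rat lay more than 2 log2 units below every vehicle rat. At 48 h the galactosamine rats had 10.74 and 10.86, against 11.91, 11.90 and 12.02, still without overlap (-1.15 ± 0.29, adjusted p = 0.00187), and at 8 d they had 12.46, 12.57 and 12.57, among the vehicle rats at 12.41, 12.40 and 12.62. Combination rats at 24 h had 12.20, 11.72 and 11.14, where rat67 lay within the vehicle range and the other two below it (-0.56 ± 0.26, adjusted p = 0.0944; -0.82, adjusted p = 0.0217 without rat67). All 3 lay above the galactosamine rats (2.40 ± 0.26, adjusted p = 1.8e-09, 5.28-fold higher). Nevirapine alone gave differences of -0.28 to 0.44 and none passed, although the 24 h rats at 12.43, 12.92 and 12.71 all lay above their vehicle rats (adjusted p = 0.329).

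Combination rats at 48 h did not form a tight group for the enzyme genes. Oat was 11.20, 10.34 and 12.14 in rat70, rat71 and rat72, and Glul was 9.87, 9.99 and 11.25 in the same rats, so rat72 alone lay above all vehicle rats for both. The differences from vehicle were -0.72 ± 0.26 for Oat (adjusted p = 0.0575) and -0.57 ± 0.27 for Glul (adjusted p = 0.166), and both passed without rat72 (-1.17, adjusted p = 0.00071, and -1.01, adjusted p = 0.0059). These Glul values are those of its brightest probe set. With all rats its other probe sets differed from vehicle by 0.03 ± 0.25 and 0.18 ± 0.37 and did not pass (adjusted p = 0.972 and 0.846). Macrophage markers in this group spread from 8.66 to 9.59, against 7.19 to 8.29 in vehicle rats. At 8 d Glul was 10.36 in rat73 and 11.73 and 11.56 in rat84 and rat87, so that vehicle rats, at 10.70 to 11.00, lay between them (0.34 ± 0.27, adjusted p = 0.376; 0.77, adjusted p = 0.0332 without rat73). The GAPDH gap was 0.334 in rat73, 0.0494 in rat84 and 0.0756 in rat87, and its part was not tested. Oat at 8 d was 12.33, 12.63 and 13.04, against 12.51, 12.43 and 12.50 in vehicle rats (0.19 ± 0.26, adjusted p = 0.648).

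Between the combination and galactosamine 2 of 5 members differed at 3 h (17.7% of all genes), 3 of 5 at 24 h (37.8%) and 1 of 5 at 48 h (29.3%). At 8 d, where each group is measured against its own vehicle rats, the 2 effects differed for 0 of 5 members (11.2% of all genes, 5.87% higher and 5.34% lower), with differences of 0.42 ± 0.39 for Glul, 0.13 ± 0.37 for Oat, 0.53 ± 0.32 for Tbx3, 0.15 ± 0.25 for Axin2 and -0.26 ± 0.64 for Wnt4. Against nevirapine at 15 d the combination at 8 d differed for 0 of 5 (12.4% of all genes, 9.31% higher and 3.09% lower; adjusted p = 0.236 to 0.83), and the interaction, the combination minus nevirapine minus the galactosamine effect, for 0 of 5 (2.82%). The comparisons of 1 time share their vehicle rats.

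Wnt ligands, receptors and signal carriers were measured for 29 of 31 listed genes. After galactosamine 2 rose and 12 fell at 3 h (14.9% and 18% of all genes), 4 rose and 12 fell at 24 h (30.2% and 28.5%), and 4 rose and 12 fell at 48 h (24.9% and 14.5%). At 3 h the frizzled receptor genes Fzd8 (-2.50 ± 0.22) and Fzd1 (-1.73 ± 0.21) and the transcription factor gene Tcf7l1 (-0.99 ± 0.16) moved most. At 24 h these were Fzd4 (-2.35 ± 0.18), Axin1 (1.72 ± 0.14), which encodes the constitutive paralogue of Axin2, and Fzd1 (-1.45 ± 0.21), and at 48 h Fzd4 (-1.30 ± 0.20), Axin1 (1.19 ± 0.15) and Fzd1 (-1.17 ± 0.24). Without rat26 the counts at 48 h were 2 and 8. In the combination 1 rose and 9 fell at 3 h (15.2% and 17.4% of all genes), 1 rose and 7 fell at 24 h (20.7% and 16%), 0 rose and 4 fell at 48 h (10.2% and 5.77%), and 5 rose and 6 fell at 8 d (13.1% and 11.7%). Without rat62 those at 3 h were 0 and 6, and without any 1 of rat11, rat12, rat70 or rat72 those at 48 h were 0 and 1 or 2. At 8 d the co-receptor gene Lrp5 fell (-1.26 ± 0.20), Wls, which encodes the carrier that Wnt proteins need for secretion, was at least 1.73-fold higher, and the secreted inhibitor Sfrp1 rose (0.86 ± 0.20); against the vehicle rats of 8 d, 5 rose and 1 fell. In these combination rats the average of 8 stellate and fibroblast markers was 7.81 (7.65 to 7.98), against 6.72 (6.54 to 6.92) in vehicle rats, and 6 of the 8 rose. After galactosamine at 3 h endothelial markers averaged 8.44 (8.41 to 8.47), against 7.79 (7.58 to 7.97), and 6 of 7 rose. Their part in these changes was not tested.

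Other Wnt feedback and target genes were measured for 8 of 11 listed genes. Galactosamine gave 1 rise and 2 falls at 3 h (14.9% and 18% of all genes), led by Znrf3 (-2.16 ± 0.35), a ligase that removes Wnt receptors, and followed by Tcf7 (0.68 ± 0.21) and Apcdd1 (-0.57 ± 0.22). At 24 h 1 rose and 3 fell (30.2% and 28.5% of all genes), with the cyclin gene Ccnd1 (1.83 ± 0.45), Apcdd1 (-0.84 ± 0.22) and Lect2 (-0.69 ± 0.16), and at 48 h 2 rose and 2 fell (24.9% and 14.5%), with Ccnd1 (2.40 ± 0.50), Lect2 (-0.97 ± 0.18) and Apcdd1 (-0.80 ± 0.24). In the combination at 8 d 5 rose and 1 fell (13.1% and 11.7% of all genes), the most of any treated group, with a list median of 0.71 beside -0.02 over all genes. They included Ccnd1 (1.19 ± 0.45), Apcdd1 (0.74 ± 0.22) and Lgr5, the R-spondin receptor gene, which passed with both group means near background and has no fold here. Axin2 itself differed by 0.02 in that comparison. Against the vehicle rats of 8 d in place of 15 d, 2 of the 8 rose and 0 fell, and without the dimmest 40% of genes 1 passed. Tcf7 is also a T cell gene and Ccnd1 a general gene of cell division.

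Zonated hepatocyte genes other than the members fell on both sides of the lobule at 24 h of galactosamine. Of 15 measured pericentral genes 1 rose and 13 fell (30.2% and 28.5% of all genes; median -1.55, beside -0.07 over all genes), with Cyp7a1, the entry enzyme of bile acid synthesis (-4.78 ± 0.69), Rgn (-3.57 ± 0.28) and Aldh3a2 (-2.79 ± 0.20) first. Of 18 periportal genes 1 rose and 14 fell (median -1.53), with serine dehydratase Sds (-4.36 ± 0.69), histidase Hal (-2.69 ± 0.37) and Fbp1 (-2.11 ± 0.14), an enzyme of glucose synthesis. In the combination at 24 h 2 pericentral genes rose and 6 fell (median -0.24), whereas 0 periportal genes rose and 14 fell (median -0.86; 20.7% and 16% of all genes). Sds (-5.08 ± 0.69), Hal (-3.43 ± 0.37) and the glutaminase gene Gls2 (-2.41 ± 0.32) fell most there, and Cyp2c22 rose (1.51 ± 0.23). The combination against galactosamine at 24 h had 12 pericentral genes higher and 0 lower of 15 (16.2% and 21.6% of all genes), and 6 periportal genes higher and 1 lower of 18. At 8 d of the combination 6 pericentral genes rose and 0 fell, while 0 periportal genes rose and 3 fell (13.1% and 11.7% of all genes). The pericentral rises were led by Cyp7a1 (2.57 ± 0.69), the glutamate transporter gene Slc1a2 (1.37 ± 0.22) and Ahr (at least 2.23-fold). Against the vehicle rats of 8 d, 3 pericentral genes rose and 0 fell, beside 1126 and 637 of all 14217 genes. After galactosamine at 8 d 0 of the 15 and 0 of the 18 passed, where only 0.0352% of all genes did. The difference between the lists was not tested.

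**Figure D4:**
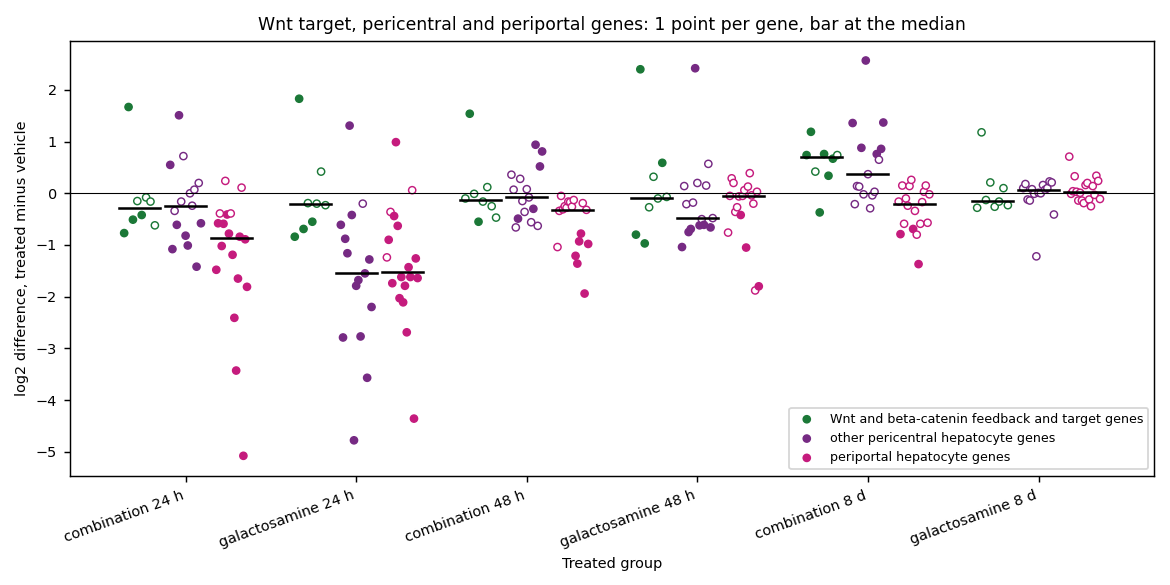
Log2 difference from vehicle (vertical axis) of each gene in 3 lists, with 1 point per gene and a bar at the list median, for the combination and galactosamine at 24 h, 48 h and 8 d (horizontal axis); filled points passed the test. At 24 h the pericentral median is -0.24 in the combination and -1.55 after galactosamine, and the periportal medians are -0.86 and -1.53.

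Genes that handle ammonia, glutamine and ornithine beside Glul and Oat were measured for 17 of 20 listed genes, and Slc1a2 and Gls2 stand in a zonation list as well. At 24 h of galactosamine 4 rose and 9 fell (30.2% and 28.5% of all genes). Slc1a2, which brings glutamate into the same pericentral hepatocytes, fell (-2.20 ± 0.22), Odc1, which turns ornithine into polyamine, rose (2.00 ± 0.18), and Got1 fell (-1.92 ± 0.46). In the combination at 24 h 1 rose and 7 fell (20.7% and 16%), with Prodh (-2.44 ± 0.28), the first enzyme of proline breakdown, Gls2 (-2.41 ± 0.32) and Odc1 (1.53 ± 0.18). Nevirapine alone lowered Slc1a2 at 24 h (-1.25 ± 0.22), the time at which Glul fell, and raised it at 15 d (1.00 ± 0.22). Among the other lists, nevirapine at 24 h gave 3 rises and 1 fall of 15 pericentral genes (4.55% and 6.63% of all genes), with Cyp2c22 (1.36 ± 0.23) and Ahr (0.94 ± 0.20) higher, and 0 rises and 3 falls of 18 periportal genes, led by Sds (-2.45 ± 0.69). At 15 d it gave 2 rises and 1 fall of pericentral genes and 1 rise and 4 falls of periportal genes (5.13% and 8.79% of all genes).

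Across the 17 group means the members did not share 1 pattern. Pearson's r was 0.63 between Glul and Oat, -0.57 between Oat and Axin2, -0.62 between Oat and Wnt4, and between -0.33 and 0.29 for the other 7 pairs. Spearman's rho was 0.53, -0.27 and -0.16 for the first 3 pairs. Deviations of the 50 rats from their group means gave r = 0.56 for Oat with Wnt4, 0.36 for Glul with Axin2, 0.34 for Tbx3 with Axin2 and -0.11 to 0.15 for the other pairs. All these values share the arrays and their normalization and are descriptions.

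Among 11412 genes searched, those whose 17 group means followed a member most closely were named for each. For Glul they were Eif4ebp3 (r = 0.900), the flavin monooxygenase gene Fmo1 (0.882) and St6gal1 (0.866). For Oat they were Kynu (0.944), an enzyme of tryptophan breakdown, Mia3 (0.932) and Clpx (0.928). Tbx3 was followed by Stard13 (0.886), Mfsd6 (0.882) and Lrig3 (0.873), and Axin2 by the immediate early gene Ier3 (0.927), Arid1a (0.925) and Rad54l2 (0.890). The laminin gene Lama5 (0.946), the histone methyltransferase gene Ezh1 (0.941) and Rps6ka4 (0.936) were nearest to Wnt4. The r takes no account of size. Group means ranged over 0.93 for Mia3 and 5.01 for Kynu, against 3.4 for Oat. They ranged over 1.3 for Ezh1, 1.88 for Rps6ka4 and 5.4 for Lama5, against 4.54 for Wnt4. The highest Wnt4 mean comes from 2 rats, and the lowest Tbx3 mean lay near background. Shared regulation was not tested.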

How the data were processed

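RNA from 50 rat livers was measured on 1 Affymetrix array each. The values are log2 probe set signals as the authors deposited them, and the submitters' processing notes name RMA and limma without versions. Of 31099 probe sets, 20826 have 1 gene symbol in the platform annotation and 436 have several, giving 14217 genes; for the 4525 genes with several probe sets the one with the highest mean over all arrays was used. No further normalization was applied, and 0 value columns were left out. With limma 3.58.1 in R 4.3.3 a mean was fitted for each of 17 groups over all arrays, contrasts were taken, and eBayes p-values were adjusted by Benjamini-Hochberg over all genes, with 0.05 as the threshold. The fit was tested on simulated data. The labels do not say whether replicate rats shared a batch.

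Named genes are the members, the 3 genes most like each by Pearson's r over group means, and up to 3 genes per list and comparison with the largest difference among those called. The members and lists were chosen with earlier results of these data known. Alternatives were another control group, normalization, filter, prior, probe set rule and fit, each rat left out, and, added after seeing the data, a GAPDH covariate and the removal of 3 rats. Figures and tables were made with Python 3.11.15, pandas 2.3.3 and matplotlib 3.10.9.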

Additional observations from a re-analysis of the deposited data

Results flagged for a closer look

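The galactosamine effect, galactosamine minus vehicle of the same time, differed between times for members as follows, as tested by the difference of the 2 effects in the limma fit. The effect at 24 h minus that at 3 h was -1.11 ± 0.39 for Glul (adjusted p = 0.015), -3.06 ± 0.37 for Oat (adjusted p = 5.64e-09), 2.42 ± 0.32 for Tbx3 (adjusted p = 4.22e-08), 3.03 ± 0.25 for Axin2 (adjusted p = 7.46e-13) and 1.78 ± 0.64 for Wnt4 (adjusted p = 0.0186). The value of Tbx3 rests on 3 h rats near background and is no exact size, and its other probe sets gave 0.31, 0.09 and 0.13 (adjusted p = 0.244, 0.703 and 0.544). Glul did not pass with cyclic loess (-0.77, adjusted p = 0.113) or without rat23 (-0.90, adjusted p = 0.0585), nor Wnt4 without rat2, rat6 or rat22 (1.49 to 1.58, adjusted p = 0.0507 to 0.0635). The effect at 48 h minus that at 24 h was 1.06 ± 0.41 for Glul (adjusted p = 0.0379), 1.81 ± 0.39 for Oat (adjusted p = 0.000305), -1.46 ± 0.27 for Axin2 (adjusted p = 3.7e-05) and 2.62 ± 0.68 for Wnt4 (adjusted p = 0.0021). Here Glul did not pass with cyclic loess (0.82, adjusted p = 0.141), with the GAPDH covariate (0.93, adjusted p = 0.114) or without any 1 of rat5, rat6, rat10, rat12, rat22, rat23, rat26 and rat27 (adjusted p = 0.0526 to 0.119). The effect at 8 d minus that at 48 h was 1.20 ± 0.39 for Oat (adjusted p = 0.0226) and -3.65 ± 0.68 for Wnt4 (adjusted p = 0.000127), and Oat did not pass with the GAPDH covariate (1.17, adjusted p = 0.0564) or without rat26 (1.14, adjusted p = 0.0822) or rat27 (1.26, adjusted p = 0.0561). The combination effect at 24 h minus that at 3 h was 1.02 ± 0.32 for Tbx3 (adjusted p = 0.0145) and 0.92 ± 0.25 for Axin2 (adjusted p = 0.00525). With only the groups compared neither passed (adjusted p = 0.101 and 0.0598), and Tbx3 did not pass against all vehicle groups (0.21, adjusted p = 0.498) or without rat1, rat4, rat61 or rat62 (0.80 to 0.89, adjusted p = 0.0535 to 0.0702).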

How the results depend on the processing

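Of 120 member values 36 passed the test. In 1861 recomputed values, 518 of 561 from called results still passed, 43 no longer did and 0 turned sign, 47 uncalled values came to pass, and 65 values that passed under neither setting changed sign. One uncalled value turned to a call of opposite sign, the galactosamine effect at 8 d minus 48 h for Axin2, -0.61 with all vehicle groups as control. The counts of members called that were not within 1.5 times of the reported count were as follows, and other counts changed by less; the cause was not tested except where genes or rats were left out. With all vehicle groups as control, the combination against vehicle gave 1 at 3 h, 3 at 24 h and 2 at 48 h, galactosamine at 8 d gave 1, nevirapine gave 0 at 3 h, 2 at 48 h and 2 at 15 d, the interaction gave 1, and the combination effect gave 1 at 48 h minus 24 h and 2 at 8 d minus 48 h. With only the groups compared, the combination gave 1 at 3 h and 1 at 8 d, nevirapine 0 at 3 h and 2 at 48 h, and the combination effect at 24 h minus 3 h gave 0. With the mean of probe sets, nevirapine gave 2 at 3 h, 3 at 48 h and 0 at 15 d, the combination at 24 h gave 0 and the combination against galactosamine at 48 h gave 2. Without the dimmest 40% of genes, which left out Wnt4, galactosamine at 48 h gave 1, nevirapine at 48 h 2, the combination at 48 h 2, the combination against galactosamine at 48 h 0 and the galactosamine effect at 8 d minus 48 h 1. Cyclic loess gave 2 for nevirapine at 48 h. With the GAPDH covariate, chosen after seeing the data, the combination at 48 h gave 0 and the galactosamine effect at 8 d minus 48 h gave 1. Without rat63, rat70 and rat31, chosen after seeing the data, nevirapine at 48 h gave 3, the combination at 48 h 0 and at 8 d 1. Leaving out each rat in turn gave 0 to 3 for the combination against vehicle at 48 h, 1 to 2 at 3 h and 0 to 1 at 8 d, 3 to 5 for the combination against galactosamine at 24 h and 1 to 2 at 48 h, and 0 to 1 for the combination at 8 d against nevirapine at 15 d. It gave 0 to 1 for nevirapine at 3 h and at 15 d, 1 to 2 at 48 h, 1 to 2 for the galactosamine effect at 8 d minus 48 h, 1 to 2 for the combination effect at 24 h minus 3 h and 0 to 2 at 8 d minus 48 h. Over all genes, the count called against all vehicle groups was 2009 in place of 5 for galactosamine at 8 d, 3545 in place of 1978 for nevirapine at 15 d, 6015 in place of 3521 for the combination at 8 d (1763 against vehicle of 8 d), and 4048 in place of 2080 and 4990 in place of 1281 for the combination effect at 48 h minus 24 h and at 8 d minus 48 h. The interaction called 401 genes, 938 against all vehicle groups, 1340 with only the groups compared, 215 without the dimmest genes, 716 without the 3 rats and 107 to 501 leaving out 1 rat. With only the groups compared, the counts were 10 for galactosamine at 8 d, 1279 in place of 2142 for nevirapine at 3 h, 4299 in place of 1978 at 15 d, 374 in place of 2265 for the combination at 48 h, 2138 in place of 4627 at 3 h, and for the combination against galactosamine 757 in place of 2518 at 3 h, 2739 in place of 5371 at 24 h and 1772 in place of 4163 at 48 h. The combination effect gave 2703 in place of 4074 at 24 h minus 3 h and 830 in place of 2080 at 48 h minus 24 h, and the combination minus galactosamine effect at 8 d gave 3125 in place of 1594. No paired analysis was possible because each rat has its own number and no number is shared between groups. Signals near background limit what can be read of Tbx3 at 3 h of galactosamine, and signals just above it limit the size of the Wnt4 differences at 48 h.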
